A study of Mus musculus with 20 samples.

Results

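The cell cycle and DNA replication set holds 36 genes, a list of gene names with no threshold on a measured value, and all 36 were among the 24062 genes of the count tables. They were ordered by role into 13 genes that act from S phase to cell division, 10 genes of DNA replication, 8 G1 cyclins and cyclin-dependent kinases, and 5 genes of the Rb and inhibitor arm. Poly(A) RNA of 2 tissues was sequenced, the pituitary gland and the inguinal white fat pad under the skin of the groin (iWAT), from male C57BL/6N mice on chow. Each tissue gave 5 libraries labelled Klf14 knockout (KO), with mouse numbers 31, 32, 35 and 66 at 21 weeks of age and number 50 at 19 weeks, and 5 labelled wild type (WT), with numbers 33 and 34 at 21 weeks, 48 and 49 at 19 weeks and 56 at 18 weeks. The series title describes the deletion as germline, so that it would be present in every cell type of both tissues, and no label says which bases were removed. Pituitary and iWAT libraries carry the same numbers. Whether a number stands for 1 animal, and whether the libraries of a group came from separate animals, is not given in the labels, so the p-values reflect only how far these libraries scatter.

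A cell enters division when D-type cyclins with Cdk4 or Cdk6, and then E-type cyclins with Cdk2, phosphorylate the retinoblastoma protein Rb1. Phosphorylated Rb1 releases E2F factors, which turn on the genes of DNA synthesis, and a later program, read from CHR elements in promoters, turns on the genes of mitosis. The inhibitors encoded by Cdkn1a (p21), Cdkn1b (p27) and Cdkn2c (p18) hold these kinases back. The axis matters in the pituitary: mice heterozygous for an Rb1 deletion, and mice that lack Cdkn1b or Cdkn2c, develop pituitary tumours. Mice that lack Cdk4 have a small anterior pituitary, while adult pituitary and fat cells divide rarely.

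The targeted gene was read first. Klf14 counts, given as CPM (counts relative to library size, scaled for composition), were higher and not lower in the pituitary libraries labelled KO, at 31.8 ± 2.86 CPM against 15.9 ± 1.72 CPM in those labelled WT (SD, n = 5 each). In iWAT Klf14 lay between 0.49 and 2.75 CPM in the labelled KO libraries and between 0.061 and 3.17 CPM in the labelled WT libraries. The counts therefore do not check the genotype labels, and KO and WT stand for what the labels say throughout. Library totals were 13591695 to 17598504 counts in the pituitary and 14799718 to 18689881 in iWAT. The tissue labels matched their markers: Gh, which encodes growth hormone, was at 68314 CPM or more in every pituitary library, and Adipoq, which encodes adiponectin, was at 667 CPM or more in every iWAT library and at most 0.0623 CPM in the pituitary. In iWAT Gh was at most 0.910 CPM in WT but reached 95.9 CPM in KO. There 11 hormone cell genes of the pituitary, Gh among them, summed to 126.0 CPM in KO 32 and to 0.941 to 3.11 CPM in the others. Mouse number 50, labelled KO, stood apart in both tissues, with the highest macrophage score in the pituitary and the lowest lymph node score in iWAT, and the main results that it moved are also given without it.

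The cell division genes were low in the pituitary and higher in iWAT, while the D-type cyclins and Cdk4 were abundant in both. Per kilobase of exon, the other G1 genes, Ccne1, Ccne2, Cdk2 and Cdk6, were each below these in both tissues. In the pituitary Ccne1 and Cdk2, at 1.36 and 2.28 CPM per kb, were also below the S phase to mitosis gene Ccna2, at 4.14 CPM per kb. Ranked per kilobase of exon, Ccnd2, a D-type cyclin, led in the pituitary at 80.4 ± 5.17 CPM per kb (SD, n = 10 libraries), followed by Cdk4, its kinase partner, at 67.9 ± 3.34 CPM per kb and by Cdkn1b at 47.0 ± 3.01 CPM per kb. In iWAT the order was Ccnd3 at 44.7 ± 6.69, Ccnd2 at 41.0 ± 8.20 and Cdkn2c at 38.9 ± 9.63 CPM per kb, which lay within each other's SD. At the other end, Bub1, a spindle checkpoint kinase, was the lowest member in both tissues, at 0.119 ± 0.0626 CPM per kb in the pituitary and 0.722 ± 0.272 CPM per kb in iWAT. Mki67, the gene of the proliferation antigen Ki-67, was at 0.998 ± 0.556 CPM per kb in the pituitary and 7.05 ± 2.97 CPM per kb in iWAT, and Top2a, the topoisomerase that untangles replicated chromosomes, was at 1.08 ± 0.476 CPM per kb in the pituitary and 6.998 ± 2.63 CPM per kb in iWAT.

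**Figure D1:**
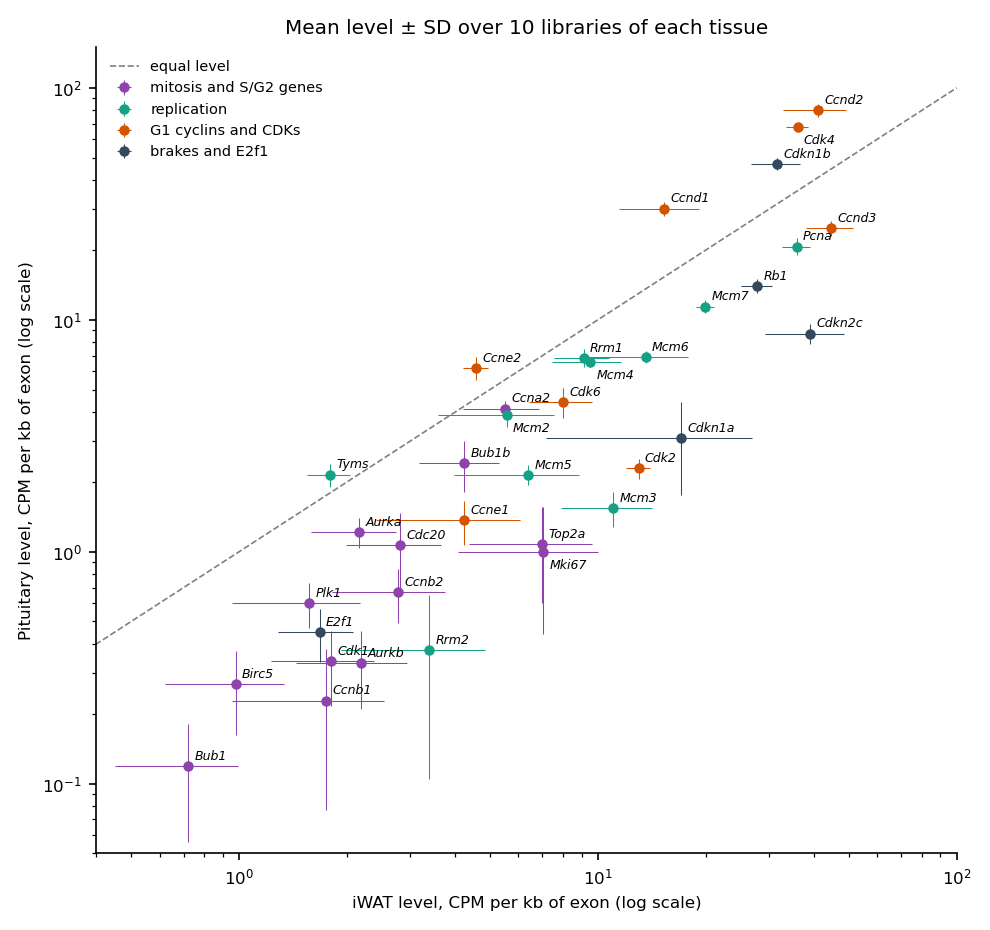
Mean level of each of the 36 genes in 10 pituitary libraries (vertical) against 10 iWAT libraries (horizontal), in CPM per kb of exon on log scales, with bars for the SD. All 13 S phase to mitosis genes lie below the line of equal level, while Ccnd2, Ccnd1, Cdk4, Cdkn1b, Ccne2 and Tyms lie above it.

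Between the WT libraries of both tissues all 36 genes passed the test, 30 lower and 6 higher in the pituitary (edgeR's quasi-likelihood test, adjusted p under 0.05). Of all genes tested, 79.1% passed in this comparison and 38.9% passed as lower in the pituitary, so a call alone sets the members little apart from other genes. For cells of a rarer kind in bulk tissue, fewer dividing cells and less RNA per dividing cell cannot be told apart. All 13 S phase to mitosis genes were lower in WT pituitary than in WT iWAT, with a median log2 difference of -1.84, against a median of 0.01 over all genes tested. Lymphocyte markers moved with this contrast: 18 B and T cell genes summed to 29.7 to 37.2 CPM in WT pituitary and to 564.9 to 2199 CPM in WT iWAT, and their part in it was not tested. In mouse number 50, whose iWAT library had only 36.1 CPM of these 18 genes, the 13 genes summed to 75.6 CPM in the pituitary and 78.7 CPM in iWAT, whereas in the other 9 numbers they summed to 33.8 to 56.3 CPM in the pituitary and 127.7 to 290.9 CPM in iWAT. Ccnb1, the cyclin that drives entry into mitosis, differed by -3.08 ± 0.411 on the log2 scale (SE, adjusted p = 2.94e-05), and Mki67 by -2.67 ± 0.232 (adjusted p = 8.30e-07). Ccna2, the cyclin of S phase and G2, differed by only -0.34 ± 0.12 (adjusted p = 0.0225); its exons overlap those of Exosc9, and reads over shared bases were counted for both.

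The replication genes divided along the same line but less far, with 9 of 10 lower in WT pituitary and a median log2 difference of -0.75. Rrm2, the subunit of ribonucleotide reductase that is made in S phase, differed by -3.36 ± 0.284 (adjusted p = 5.83e-07), whereas its partner Rrm1, present throughout the cycle, differed by -0.39 ± 0.0838 (adjusted p = 0.00106). Within the MCM helicase, whose subunits form 1 ring, the log2 difference was -2.75 ± 0.188 for Mcm3 (adjusted p = 1.14e-07) but -0.45 ± 0.18 for Mcm2 (adjusted p = 0.0394) and -0.50 ± 0.126 for Mcm4 (adjusted p = 0.00351). Pcna, the sliding clamp of the polymerases, was at 0.584 of its WT iWAT level in WT pituitary (log2 -0.78 ± 0.0661). Tyms, which makes thymidylate, was the exception at 0.27 ± 0.114 (adjusted p = 0.0474), and it did not pass in the KO libraries (0.28 ± 0.142, adjusted p = 0.0903).

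Among the G1 genes 4 were higher and 4 lower in WT pituitary than in WT iWAT. Ccnd2 had 494.2, 455.7, 435.7, 488.1 and 429.4 CPM in WT pituitary, against 329.5, 253.0, 206.8, 199.2 and 191.3 CPM in WT iWAT, and the groups did not overlap. Its log2 difference was 0.99 ± 0.136 (adjusted p = 3.87e-05), and Ccnd1 (0.97 ± 0.151), Cdk4 (0.98 ± 0.0693) and Ccne2 (0.43 ± 0.103) were higher as well. Cdk4 was at 97.9, 94.6, 93.2, 88.8 and 86.5 CPM in WT pituitary, against 43.6, 50.3, 50.1, 48.8 and 43.8 CPM in WT iWAT, again without overlap. The third D-type cyclin went the opposite way: Ccnd3 had 56.2, 55.9, 49.6, 49.2 and 56.5 CPM in WT pituitary, against 94.8, 114.5, 108.6, 83.2 and 103.6 CPM in WT iWAT (log2 -0.90 ± 0.0955, adjusted p = 4.17e-06). Cdk6, which shares the D-type cyclins with Cdk4, was lower at -0.89 ± 0.162 (adjusted p = 3.41e-04), and so were Cdk2 at -2.54 ± 0.0933 (adjusted p = 8.38e-10) and Ccne1 at -1.58 ± 0.296 (adjusted p = 4.41e-04). Close relatives thus differed in direction between the tissues: Ccnd2 and Ccnd3, Cdk4 and Cdk6, and Ccne2 and Ccne1. Exons of Ccnd3 overlap those of Bysl, and exons of Ccne2 overlap those of Ints8. Reads over shared bases were counted for both genes, and their part in these differences was not tested.

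The inhibitors split too. Cdkn1b had 118.1, 111.9, 102.5, 119.4 and 114.1 CPM in WT pituitary, against 67.5, 72.7, 91.1, 72.2 and 89.1 CPM in WT iWAT, a log2 difference of 0.55 ± 0.0978 (adjusted p = 2.98e-04). Cdkn2c had 7.86, 10.7, 11.0, 10.9 and 9.13 CPM in WT pituitary, against 50.9, 48.4, 28.6, 45.9 and 38.9 CPM in WT iWAT (log2 -2.08 ± 0.159, adjusted p = 2.74e-07). Cdkn1a was lower at -2.53 ± 0.324 (adjusted p = 2.17e-05), Rb1 at -0.99 ± 0.0601 (adjusted p = 3.98e-08) and E2f1, an activator E2F, at -2.07 ± 0.213 (adjusted p = 3.14e-06). In none of these 5 genes did the WT tissues overlap. The share of all genes without overlap between the tissues was not computed, so this does not set these genes, or Ccnd2 and Cdk4 above, apart.

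The KO libraries gave the tissue comparison again in samples that the WT comparison did not use. There 33 of 36 genes passed, 28 lower and 5 higher in KO pituitary, against 75.1% of all genes tested (37.8% as lower). The sign was the same as in WT for each of the 36 genes, and Ccna2, Mcm2 and Tyms did not pass. The median log2 difference of the 13 S phase to mitosis genes was -2.27, and without KO 50 it was -2.68, with 35 of 36 members called against 77.2% of all genes. Ccnd2 was at 518.9, 469.0, 432.2, 469.4 and 444.9 CPM in KO pituitary, against 268.2, 283.5, 244.4, 183.8 and 206.8 CPM in KO iWAT (log2 0.98 ± 0.122, adjusted p = 2.69e-05). Cdk4 was at 91.8, 94.4, 94.6, 83.2 and 88.4 CPM in KO pituitary, against 53.4, 49.0, 52.9, 47.5 and 45.5 CPM in KO iWAT (0.87 ± 0.0716, adjusted p = 1.01e-06). Neither pair of KO groups overlapped. Cdkn1b was at 111.0, 124.4, 108.6, 102.6 and 118.6 CPM in KO pituitary, against 91.9, 65.6, 74.2, 56.4 and 79.6 CPM in KO iWAT (0.63 ± 0.123, adjusted p = 7.90e-04). Cdkn2c was at 9.05, 9.51, 9.57, 8.93 and 9.85 CPM in KO pituitary, against 31.6, 50.3, 34.7, 63.5 and 37.8 CPM in KO iWAT (-2.21 ± 0.187, adjusted p = 1.34e-06), and Ccnd3 was at 55.1, 63.4, 57.7, 59.9 and 56.2 CPM in KO pituitary, against 103.6, 96.5, 131.6, 79.8 and 94.3 CPM in KO iWAT (-0.79 ± 0.121, adjusted p = 1.31e-04). The KO tissues did not overlap in these 3 genes either, and the share of all genes without such overlap was not computed. The other genes of the pathway, 119 taken from lists of replication, mitosis and cell cycle control, showed the same contrast by role: in WT, 31 of 38 other mitosis genes were lower and 2 higher (median -1.48), 19 of 37 other replication genes were lower and 5 higher (median -0.17), and 12 of 42 tested control genes passed in each direction (median 0.00). The 2 other pathway genes with the highest level per kilobase were Ccng1, a p53 target, and Rbl2, an Rb relative, in the pituitary, at 40.9 and 28.4 CPM per kb, and Ccng1 and Smc4, a condensin subunit, in iWAT, at 36.8 and 36.7 CPM per kb. Racgap1, which acts in cytokinesis, was chosen after its values were seen as a mitosis gene that was higher in WT pituitary, by 2.03 ± 0.225 (adjusted p = 6.23e-06).

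**Figure D2:**
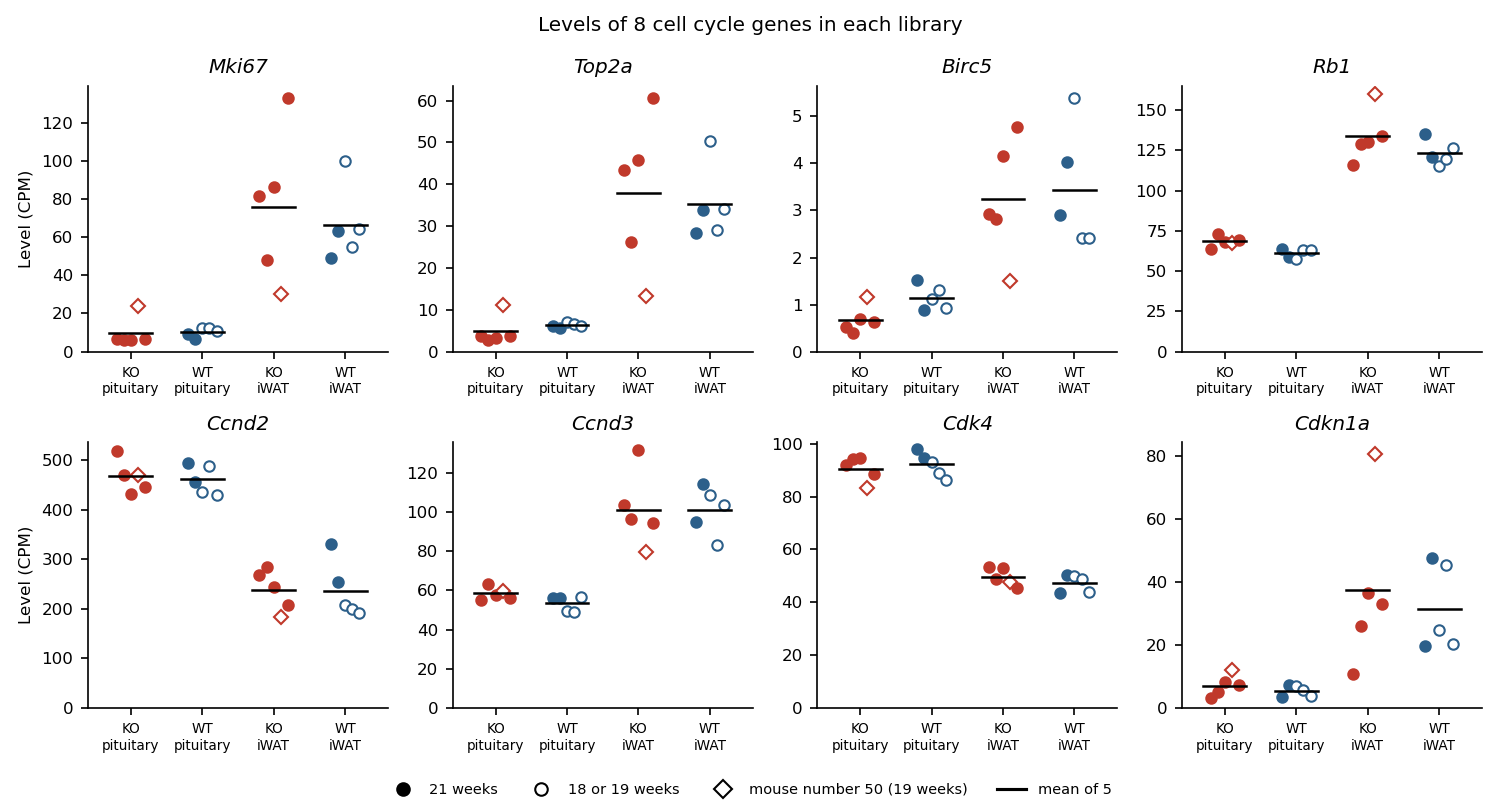
Level in CPM of 8 genes in each library, by group, with a bar for the mean of 5; filled symbols are mice of 21 weeks, open symbols mice of 18 or 19 weeks, and the diamond is mouse number 50. Mki67 and Top2a are low in the pituitary except in KO 50, Ccnd2 and Cdk4 are higher and Ccnd3 and Rb1 lower in the pituitary than in iWAT, and KO and WT overlap in each panel of a tissue.

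In the pituitary no member passed the test between the genotype labels. The fit called 0 of the 32 members that passed the filter on low counts, against 0.549% of all genes tested, or 90 of 16389, and DESeq2 and limma voom also called 0. Bub1, Ccnb1, Aurkb and Rrm2 did not pass that filter. At an unadjusted p under 0.05 the edgeR fit had 3 of 32 members and 1792 of all 16389 genes. DESeq2 had 2 members and 1704 genes there, and voom had 6 members and 2166 genes. No member had KO and WT pituitary libraries that did not overlap, against 2.85% of all genes tested. The median log2 fold change of the 32 members was -0.01, and that of all genes was 0.00.

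Rb1 had the smallest p. It was at 63.8, 73.1, 68.0, 67.4 and 69.6 CPM in KO pituitary, against 63.8, 58.7, 57.7, 62.8 and 63.2 CPM in WT pituitary. The groups overlapped only through the lowest KO and the highest WT library, and the log2 fold change was 0.16 ± 0.0506 (unadjusted p = 0.00687, adjusted p = 0.213). Birc5, which encodes survivin of the chromosomal passenger complex, was at 0.532, 0.403, 0.688, 1.15 and 0.623 CPM in KO pituitary, against 1.52, 0.880, 1.11, 1.31 and 0.919 CPM in WT pituitary. Here 4 of 5 KO libraries lay below every WT library and KO 50 among them, with a log2 fold change of -0.78 ± 0.29 (adjusted p = 0.301). Ccnd3 was at 55.1, 63.4, 57.7, 59.9 and 56.2 CPM in KO pituitary, against 56.2, 55.9, 49.6, 49.2 and 56.5 CPM in WT pituitary (log2 0.13 ± 0.0592, adjusted p = 0.447). Mcm6 was at 21.7, 21.1, 21.1, 19.4 and 20.9 CPM in KO pituitary, against 17.9, 19.1, 19.0, 20.2 and 19.7 CPM in WT pituitary (log2 0.12 ± 0.0613, adjusted p = 0.506). Only the KO 50 value of Mcm6 fell inside the WT range.

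The division genes of the pituitary turned on 1 library. Mki67 was at 6.55, 6.11, 5.88, 24.1 and 6.42 CPM in KO pituitary, in the order of mouse numbers 31, 32, 35, 50 and 66, against 9.44, 6.43, 12.3, 12.6 and 10.7 CPM in WT pituitary, in the order 33, 34, 48, 49 and 56. Top2a was at 3.78, 2.82, 3.13, 11.2 and 3.68 CPM in KO pituitary, against 6.21, 5.75, 6.97, 6.67 and 6.13 CPM in WT pituitary. For both genes KO 50 was above every WT library, and for Top2a the other 4 KO libraries were below every WT library. With all libraries the log2 fold change was -0.09 ± 0.444 for Mki67 (adjusted p = 0.964) and -0.39 ± 0.348 for Top2a (adjusted p = 0.753). Without KO 50 it was -0.92 ± 0.133 for Top2a, which then passed (adjusted p = 0.00651), and -0.72 ± 0.166 for Mki67, which did not (adjusted p = 0.0751). In that fit 1 of 32 members was called, against 0.68% of all genes tested. The KO libraries left in it were all of 21 weeks, while WT 48, 49 and 56 were of 18 or 19 weeks. Age and genotype label could therefore not be fully told apart in it.

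The fold changes of the 10 tested S phase to mitosis genes were all negative in the pituitary, with a median of -0.13, and none passed with all libraries. Of all genes tested 7995 of 16389 were negative. The 10 genes were read in the same libraries, so their signs are not separate observations. Without the filter on low counts 12 of 13 were negative, with a median of -0.17. With the filter, the median moved with single libraries: it was -0.39 without KO 50 (10 of 10 negative), -0.07 without KO 32 (9 of 12) and -0.02 without WT 48 (8 of 11). Of the other mitosis genes 25 of 34 were negative (median -0.11) and 0 passed. With age in weeks as a covariate 5 of the 10 were negative and the median was 0.00, and among mice of 21 weeks 10 of 11 tested were negative, with a median of -0.18. With the age covariate, over all libraries, Top2a was at -0.17 ± 0.292 (adjusted p = 0.922) and Mki67 at 0.26 ± 0.297 (adjusted p = 0.868). At 21 weeks, with 4 KO and 2 WT libraries, Top2a was at -0.84 ± 0.18 (adjusted p = 0.378) and Mki67 at -0.36 ± 0.173 (adjusted p = 0.816). The pituitary library of KO 50 also had a macrophage marker score of 4.11, a mean log2 CPM over 12 genes of which none was at 0, against 2.79 to 3.13 in the other 9 libraries. Its 12 macrophage genes summed to 316.1 CPM, against 107.6 to 149.7 CPM in the others, and its red blood cell genes to 2436 CPM against 1107 to 1989 CPM. Its B and T cell score was also the highest, at 2.002 against 1.27 to 1.69 over the 7 of 18 genes that passed the filter, while all 18 summed to 40.1 CPM, against 29.7 to 40.6 CPM in the others. Its T cell genes summed to 9.58 CPM, against 4.81 to 6.94 CPM, and its stem and folliculostellate cell genes to 297.3 CPM, against 189.2 to 230.8 CPM. The score of that last list did not set KO 50 apart, at 3.855 against 3.848 in WT 56. With the macrophage score as a covariate Top2a was at -0.94 ± 0.148 (adjusted p = 0.0115) and was the 1 of 32 members called, against 0.708% of all genes. Because that score mainly sets KO 50 apart, this fit is close to leaving KO 50 out and is not a separate result. The part of the cell types named here in the KO 50 values was not tested.

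**Figure D3:**
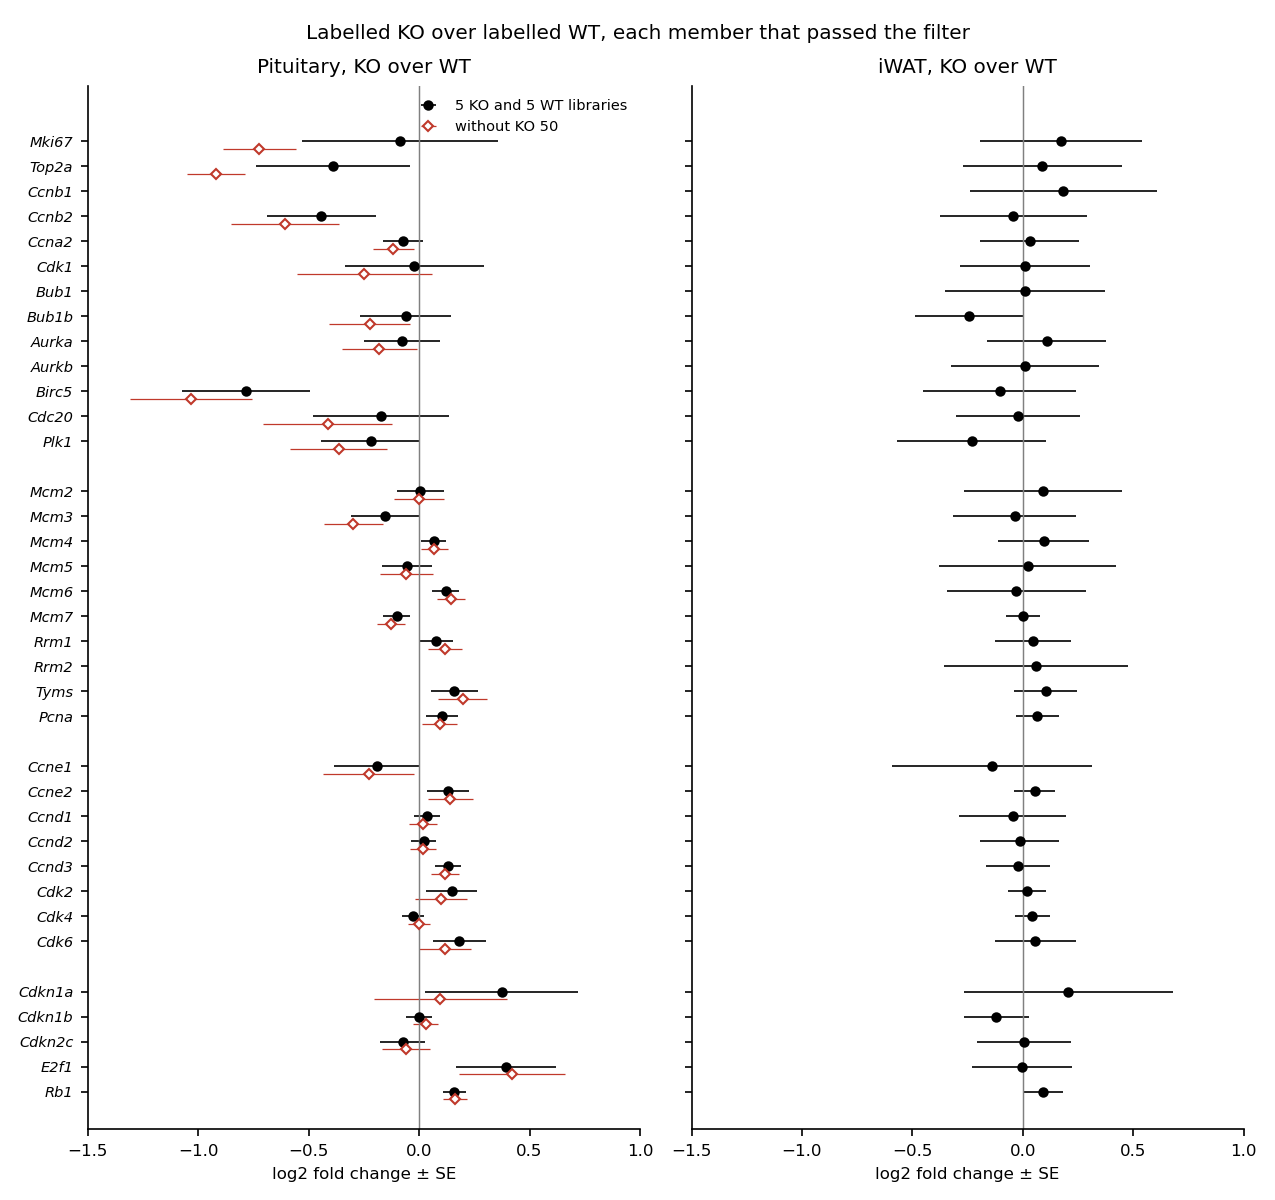
Log2 fold change of labelled KO over labelled WT, with bars for the SE, for each member that passed the filter, in the pituitary (left) and in iWAT (right). Black points use 5 KO and 5 WT libraries and red diamonds leave out KO 50: the diamonds of Top2a and Mki67 shift to -0.92 and -0.72, while that of Rb1 stays at 0.16.

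A few members separated the pituitary libraries by age. Mki67 was at 6.80 ± 1.31 CPM in the 6 libraries of 21 weeks and at 14.9 ± 6.19 CPM in the 4 libraries of 18 or 19 weeks (SD), and the highest of the older, at 9.44 CPM, was below the lowest of the younger, at 10.7 CPM. Bub1b, a spindle checkpoint gene, was at 7.38 ± 1.33 CPM at 21 weeks and 11.0 ± 0.983 CPM at 18 or 19 weeks, and Ccne1 at 2.34 ± 0.271 and 3.16 ± 0.599 CPM, also without overlap. These 3 were the only ones of the 32 members to separate that way, against 1.37% of all genes tested, and none separated the other way. In a fit with genotype and age, a comparison added after the data were seen, 0 members were called on age, against 0% of all genes tested (1253 of 16389 genes and 5 of 32 members had an unadjusted p under 0.05). The slope of Bub1b was -0.29 ± 0.0603 log2 units per week (adjusted p = 0.438) and that of Mki67 was -0.49 ± 0.132 (adjusted p = 0.534), or -0.26 ± 0.0752 and -0.20 ± 0.0761 without KO 50 (adjusted p = 0.908 for both). The 4 KO mice of 21 weeks and the single younger KO mouse mean that age and genotype label overlap in part.

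In iWAT no member passed between the genotype labels either. The fit called 0 of 36 members, against 0% of all 16105 genes, and 0 members and 89 genes had an unadjusted p under 0.05. Neither DESeq2 (127 genes and 0 members below an unadjusted 0.05) nor voom (253 genes and 0 members) made a call. No member separated the KO from the WT libraries, as was the case for all but 0.0807% of genes. The biological coefficient of variation, the spread between libraries beyond counting error, was 0.307 in iWAT and 0.101 in the pituitary as 1 value over all genes. A difference of the same size was thus harder to call in fat for a typical gene, though not for every member. The SD over the mean of Mki67 and Top2a was 0.816 and 0.716 in KO pituitary, against 0.522 and 0.487 in KO iWAT. For WT it was 0.243 and 0.075 in the pituitary, against 0.299 and 0.254 in iWAT.

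The members with the smallest p in iWAT were Bub1b, Rb1, Cdkn1b and Tyms. Bub1b was at 16.4, 12.8, 16.4, 7.23 and 19.0 CPM in KO iWAT, against 14.9, 14.5, 22.3, 16.1 and 16.1 CPM in WT iWAT (log2 -0.24 ± 0.245). Rb1 was at 116.1, 129.2, 130.0, 159.8 and 133.9 CPM in KO iWAT, against 135.2, 120.9, 115.1, 119.5 and 126.2 CPM in WT iWAT (log2 0.09 ± 0.0907). Cdkn1b was at 91.9, 65.6, 74.2, 56.4 and 79.6 CPM in KO iWAT, against 67.5, 72.7, 91.1, 72.2 and 89.1 CPM in WT iWAT (log2 -0.12 ± 0.147). The values of KO and WT ran through each other in all 3. Tyms was at 8.48, 7.14, 5.76, 6.10 and 8.07 CPM in KO iWAT, against 7.38, 6.35, 6.55, 6.59 and 5.70 CPM in WT iWAT (log2 0.10 ± 0.144), and each of the 4 had an adjusted p of 0.99995. Whether the KO effect differed between iWAT and pituitary was tested in 1 fit over 20 libraries. It called 0 of 36 members, against 0% of all 17731 genes (427 genes and 0 members at an unadjusted p under 0.05). DESeq2 called 1 gene and 0 members. Voom called 0 genes, with 538 genes and 3 members at an unadjusted p under 0.05. The difference of effects was 0.49 ± 0.518 for Top2a and 0.27 ± 0.572 for Mki67 on the log2 scale. Single libraries moved this difference: without KO 50 it was 1.22 for Top2a and 1.10 for Mki67 (adjusted p = 0.9999 for both), and without KO 66 it was 0.17 and -0.15. Without KO 50, 4 of 36 members had an unadjusted p under 0.05, against 542 of 17821 genes. Over the 13 S phase to mitosis genes the median was 0.21 with all libraries, 0.55 without KO 50 (0 negative), 0.37 without WT 48, 0.13 without KO 31, 0.10 without WT 49 and -0.06 without KO 66 (7 negative).

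Across the iWAT libraries many members had higher levels where B and T cell genes did. An inguinal pad can hold the inguinal lymph node, whose dividing lymphocytes use the same genes, and 18 B and T cell genes that share no member with the set were averaged into a score per library (mean log2 CPM). The score was 6.70, 5.61, 6.39, 0.77 and 6.07 in KO iWAT, against 5.71, 6.08, 6.68, 4.71 and 6.35 in WT iWAT. The 18 genes summed to 36.1 CPM in KO 50 and to 564.9 to 2345 CPM in the other 9 libraries, and none was at 0 in any library. The iWAT library of KO 50 also stood apart in other marker lists: its red blood cell genes summed to 7766 CPM against 928.4 to 4005 CPM in the others, and its endothelial genes to 1886 CPM against 874.1 to 1327 CPM. Its adipocyte genes summed to 20061 CPM against 5267 to 14995 CPM. Their score did not set it apart, at 10.50 against 10.56 in WT 33. The part of these cells in the slopes was not tested. With genotype in the fit, the slope on the score passed for 25 of 36 members, 23 of them positive, against 36.6% of all genes tested in either direction and 20.8% as positive. Of the 13 S phase to mitosis genes 11 were called, all positive (median 0.26 log2 units per unit of score, against 0.00 over all genes), and of the 10 replication genes 8, all positive.

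Mcm5 was at 31.3, 16.5, 28.4, 5.88 and 29.0 CPM in KO iWAT, against 18.2, 22.2, 30.6, 13.58 and 23.3 CPM in WT iWAT. Its order across libraries nearly repeated that of the score, with the lowest value in KO 50 and the next lowest in WT 49, and its slope was 0.43 ± 0.0443 (adjusted p = 1.14e-04). Ccne1, which starts S phase with Cdk2, was at 12.4, 5.70, 11.2, 1.88 and 8.49 CPM in KO iWAT, against 6.41, 9.17, 12.7, 4.51 and 10.3 CPM in WT iWAT, and had the steepest slope of the members at 0.48 ± 0.0601 (adjusted p = 3.63e-04). Mki67 was at 81.6, 47.8, 86.2, 30.3 and 132.8 CPM in KO iWAT, against 49.0, 63.4, 99.9, 54.8 and 64.4 CPM in WT iWAT, with a slope of 0.30 ± 0.081 (adjusted p = 0.0174). Top2a was at 43.4, 26.2, 45.9, 13.2 and 60.6 CPM in KO iWAT, against 28.4, 33.8, 50.5, 29.0 and 34.1 CPM in WT iWAT, with a slope of 0.33 ± 0.0661 (adjusted p = 0.00423). For Mki67 and Top2a the highest library was KO 66, whose score of 6.07 was in the middle of the range.

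The number of calls rested on KO 50, while the median slope of the S phase to mitosis genes did not shrink without it. Without it 7 of 36 members passed, all positive, against 23.2% of all genes tested in either direction and 12.9% as positive, and they were Ccne1, Aurka, Mcm2, Mcm3, Mcm4, Mcm5 and Mcm6. In either direction the members' share was then near that of all genes. In that fit the slope was 0.84 ± 0.0982 for Ccne1 (adjusted p = 0.00104), 0.61 ± 0.101 for Mcm5 (adjusted p = 0.00449) and 0.59 ± 0.0852 for Mcm2 (adjusted p = 0.00281), and 0.39 ± 0.234 for Mki67 (adjusted p = 0.238) and 0.38 ± 0.187 for Top2a (adjusted p = 0.167). The median slope of the 13 S phase to mitosis genes was 0.39, against 0.26 with all libraries. By voom with all libraries 8 of 36 members passed, against 23.6% of all genes. A skeletal muscle score, which spanned -0.06 to 5.14 over the iWAT libraries, was lowest in KO 50 as well, closely followed by WT 49 at -0.05, and with that score added 5 members passed, Ccne1, Mcm2, Mcm5, Mcm6 and Rrm1, against 6.13% of all genes, with a median slope of 0.24 for the S phase to mitosis genes. Cdkn1a and Cdkn2c went the other way, at -0.31 ± 0.0973 (adjusted p = 0.034) and -0.15 ± 0.0442 (adjusted p = 0.0257), and without KO 50 they were at -0.46 ± 0.338 (adjusted p = 0.337) and -0.36 ± 0.126 (adjusted p = 0.0696), steeper but not called. Cdk4, Cdk2, Ccnd2, Ccne2, Mcm7 and Tyms were among the 11 members that did not pass on the score. Of the 119 other pathway genes, 65 of 117 tested had a positive slope that passed and 2 a negative one, with 28 positive among 38 other mitosis genes and 23 among 37 other replication genes.

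**Figure D4:**
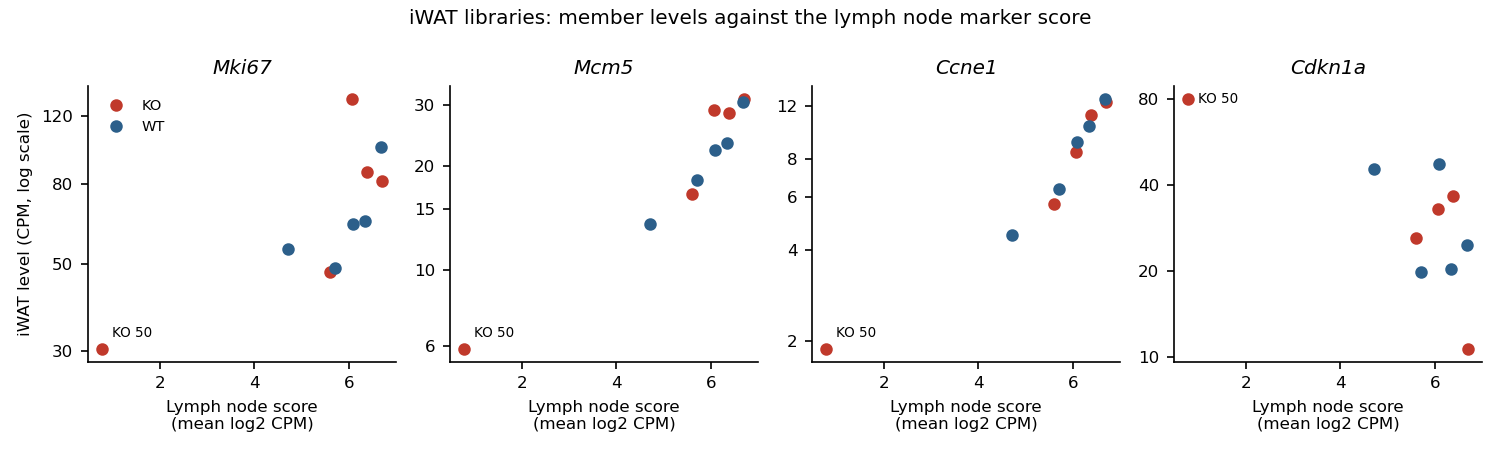
Level of 4 members in the 10 iWAT libraries (CPM, log scale) against the lymph node score, the mean log2 CPM of 18 B and T cell genes, for KO (red) and WT (blue). Mcm5 and Ccne1 climb with the score also among the 9 libraries to the right, Mki67 scatters more, and Cdkn1a is highest in KO 50, the library with the lowest score.

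Promoters of 6 replication and division genes are shown because the E2F and CHR sequences named above can be read in them. RefSeq windows from 250 bases before to 50 bases after the start (GRCm38.p6) were matched for 29 of the 36 members, and 4 E2F-like 8-base motifs (TTTCGCGC, TTTGGCGC, TTTCCCGC and TTTGCCGC), the CHR core TTTGAA and the CCAAT box were searched on both strands. An E2F motif was in 4 of 5 Mcm promoters, those of Mcm3, Mcm5, Mcm6 and Mcm7, and in 6 of the 29 (20.7%), against 2.6% of the 27025 genes with a window. TTTGAA was in 8 of 11 S phase to mitosis promoters (72.7%), against 20.2% of all, and in 1 of 9 replication promoters. CCAAT was in 22 of 29 (75.9%), against 41.1% of all. No member of the inhibitor arm with a window had an E2F motif or TTTGAA in it. Matches on the 2 strands can overlap, as in Mcm5 and Mcm6, and a match is a string of letters and not a shown binding site. In the stretches below, given 5′ to 3′ on the gene's strand with positions counted from the start, capitals mark the motifs, on either strand, with E2F motifs in the first 3 and TTTGAA in the last 4.
Mcm5 (chr8:75109349-75109508, + strand): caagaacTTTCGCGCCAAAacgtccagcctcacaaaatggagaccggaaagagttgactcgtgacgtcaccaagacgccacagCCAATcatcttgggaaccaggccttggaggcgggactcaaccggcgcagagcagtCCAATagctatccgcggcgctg
Mcm6 (chr1:128359706-128359825, - strand): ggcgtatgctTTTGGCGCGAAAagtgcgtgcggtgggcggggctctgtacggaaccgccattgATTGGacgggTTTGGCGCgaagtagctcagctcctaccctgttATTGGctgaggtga
Cdk1 (chr10:69352913-69353052, - strand): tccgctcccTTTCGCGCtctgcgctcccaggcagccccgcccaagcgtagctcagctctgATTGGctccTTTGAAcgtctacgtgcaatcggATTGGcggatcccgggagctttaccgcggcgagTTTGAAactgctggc
Cdc20 (chr4:118437344-118437403, - strand): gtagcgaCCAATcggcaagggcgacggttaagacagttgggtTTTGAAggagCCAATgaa
Top2a (chr11:99024190-99024289, - strand): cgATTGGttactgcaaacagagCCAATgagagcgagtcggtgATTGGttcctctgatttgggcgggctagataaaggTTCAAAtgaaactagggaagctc
Mki67 (chr7:135716469-135716574, - strand): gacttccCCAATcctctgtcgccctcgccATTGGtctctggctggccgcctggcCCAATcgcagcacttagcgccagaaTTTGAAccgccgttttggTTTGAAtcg

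In the Mcm5 window TTTCGCGC and, on the other strand, TTTGGCGC overlap into a run from base -153 to -142, and Mcm6 has the same pair with the strands exchanged from -110 to -99 with a further match from -47 to -40. Cdk1, the kinase of mitosis, holds an E2F motif from -131 to -124 and TTTGAA from -71 to -66 and from -15 to -10. Cdc20, which activates the anaphase-promoting complex, has TTTGAA from -18 to -13, Top2a has its reverse complement from -23 to -18, and Mki67 has TTTGAA from -116 to -111 and from -98 to -93. In the iWAT fit, the genes with an E2F motif in the window included Mcm3, Mcm5 and Mcm6, which passed on the score, and Mcm7, Cdk1 and Cdk2, which did not.

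Of the members, Cdkn1a had the highest correlation between the tissues over mouse numbers, a relation that did not pass adjustment over all genes. It was at 3.09, 4.90, 8.07, 12.1 and 7.23 CPM in KO pituitary, against 3.58, 7.11, 6.97, 5.70 and 3.74 CPM in WT pituitary. In iWAT it was at 10.6, 26.0, 36.6, 80.6 and 33.0 CPM in the KO libraries, against 19.8, 47.7, 24.7, 45.5 and 20.3 CPM in the WT libraries. KO 31 was lowest and KO 50 highest in both tissues, while the genotypes overlapped in both. Over the 10 mouse numbers Pearson's r of log2 CPM was 0.886 and Spearman's rho was 0.842, with permutation p = 8.9e-04 and p = 0.00386 (two-sided, 100000 resamples). Among 14936 genes with the same relation computed, a comparison added after the data were seen, the adjusted p of r was 0.458 and 0 genes passed, and 0.154% of genes had a higher r. Without KO 31 and KO 50, the numbers farthest from the median in the pituitary, r was 0.715, without KO 50 alone it was 0.817, and within genotype it was 0.907. Of 34 members with enough counts in both tissues, 1 had an r over 0.7, against 2.27% of all genes, so the members' share was near the background, and their median r was -0.06, against 0.06 for all. Mki67 had an r of -0.57 (permutation p = 0.085, adjusted p = 0.852), -0.18 without KO 50, and -0.03 without KO 50 and WT 49. Its level in KO 50 was the highest in the pituitary and the lowest in iWAT.

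**Figure D5:**
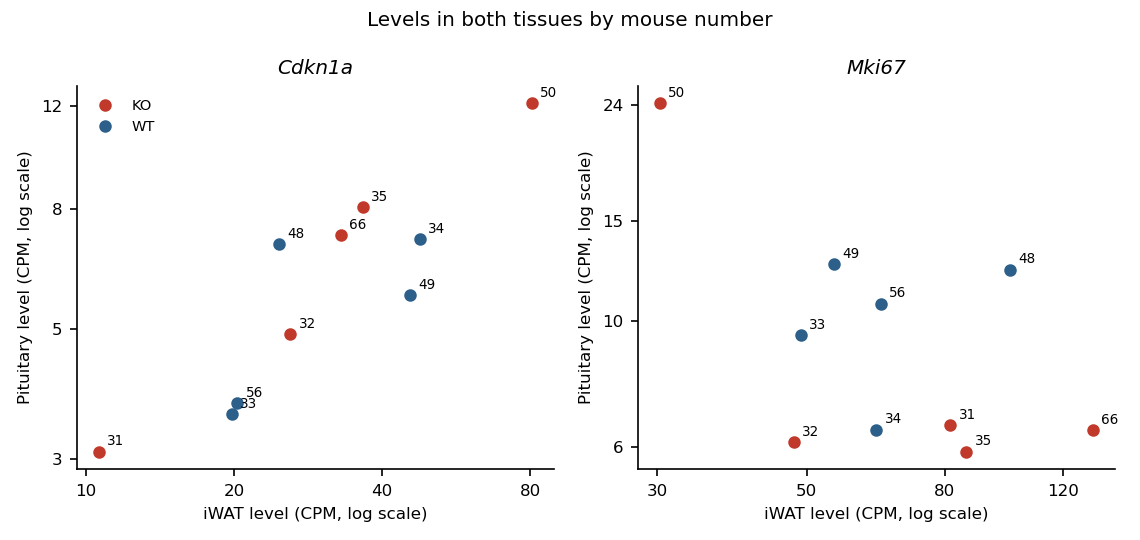
Level of Cdkn1a (left) and Mki67 (right) in the pituitary (vertical) against iWAT (horizontal), CPM on log scales, with the mouse number beside each point, KO in red and WT in blue. Cdkn1a climbs in both tissues together, with r = 0.886 over 10 numbers, and Mki67 shows KO 50 alone at the upper left.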

How the data were processed

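Each library came as 1 deposited table of raw counts, whole numbers of reads per gene, which the authors made with featureCounts, per the file headers. Per the submitters' processing notes, STAR 2.4.0 and featureCounts 1.4.4 were used with the mouse builds mm10 and GRCm38. The headers also record that primary alignments were counted over the exons of a UCSC mm10 annotation, a read over several genes counted for each, and no strand option was set, so overlapping genes (Ccna2 with Exosc9, Ccne2 with Ints8, Ccnd3 with Bysl, Cdc20 with Elovl1, Ccnd1 with Mir3962) share reads. Each comparison was fitted on all genes with edgeR 4.0.16 (R 4.3.3), using filterByExpr, TMM scaling and the robust quasi-likelihood test (Benjamini-Hochberg adjustment, threshold 0.05). The SE is the log2 fold change over the square root of F. Displayed CPM are scaled by TMM over all 20 libraries. Marker scores are means of log2 CPM with a prior count of 2 over list genes that passed the filter. Totals of 13591695 to 18689881 counts limit precision through counting error for genes near 1 CPM. Alternatives used DESeq2 1.42.0, limma 3.58.1 voom with quality weights, other scalings and filters, covariates, and each mouse left out. Within groups, no 2 libraries agreed within sampling noise (lowest reduced chi-square 4.70). Named members are Mki67, Top2a, members called, the 4 with the smallest p in each genotype comparison and the 3 highest per kilobase in each tissue; others were chosen after their values were seen. The members and lists were chosen with earlier results of these data known. Promoter sequences are from RefSeq (GRCm38.p6), and the authors' coordinates are mm10.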

Additional observations from a re-analysis of the deposited data

Results flagged for a closer look

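Levels were screened for a library far from the other 4 of its group (the gap to the nearest library over the range of the group), in 144 groups of 5, the 36 members in each tissue and genotype. There were 16 such values, and chance alone flags about 1 group in 20. In KO pituitary 5 of them were the highest library KO 50: Mki67 at 24.1 CPM with the next at 6.55, Top2a at 11.2 CPM with the next at 3.78, Bub1 at 1.08 CPM with the next at 0.346, Aurkb at 1.01 CPM with the next at 0.561, and Mcm3 at 5.91 CPM with the next at 4.03. Mcm4 was high in KO pituitary 35, at 25.3 CPM. In WT pituitary, Ccna2 was high in WT 48 at 13.8 CPM and Mcm2 low in WT 49 at 11.2 CPM. In iWAT, Mcm7 was low in KO 32 at 44.1 CPM. WT 48 held 5 of the WT iWAT values, each the highest: Top2a at 50.5 CPM, Bub1b at 22.3 CPM, Ccna2 at 19.3 CPM, Rrm2 at 11.2 CPM and Plk1 at 6.55 CPM. That library had the highest lymph node score of the WT group, 6.68, and the part of lymphocytes in these values was not tested. Ccne2 was high in WT iWAT 49 at 16.8 CPM and Cdk2 in WT iWAT 56 at 35.5 CPM.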

How the results depend on the processing

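The count of members called was 0 for KO over WT in the pituitary, and leaving out each mouse gave 0 to 1. It was 1 (Top2a) without KO 50, and likewise with the macrophage score as a covariate, which mainly sets KO 50 apart. Without KO 50 every KO library was of 21 weeks, so age and genotype label could not be fully told apart. The slope on the lymph node score called 25 members (36.6% of all genes), 8 by limma voom (23.6%), 5 with the skeletal muscle score added (6.13%), and 7 to 25 when each mouse was left out, 7 without KO 50 (23.2%). The other counts of called members kept within 1.5 times under the alternatives tried: 0 in iWAT and for the difference of effects, 33 to 36 for the WT tissues and 30 to 35 for the KO tissues. No named member reversed past the threshold. With the mouse number as a replicate block the counts were 0 for the difference of effects, 35 for the WT tissues and 32 for the KO tissues. Deviations of same-numbered libraries correlated weakly (-0.059 to 0.095, own number best of 5 in 4 of 10), which does not settle whether numbers are pairs. The main fits did not take the numbers as pairs, while the correlations between tissues matched libraries by number. No block by number could be fitted within a tissue, where the genotypes share no number. Genes near or under 1 CPM in the pituitary (Ccnb1, Bub1, Aurkb, Rrm2, Birc5, Cdk1) rest on few counts, where small differences were not detectable at this depth.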

Other observations

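Of the other pathway genes, those with the smallest p for KO over WT in the pituitary were Lig1, a DNA ligase of replication, at 14.6 ± 1.02 CPM in KO and 11.1 ± 0.915 CPM in WT (SD, n = 5 each; edgeR log2 0.39 ± 0.0852, adjusted p = 0.0566), Smc4 at 57.9 ± 3.20 CPM in KO and 48.5 ± 4.50 CPM in WT (log2 0.26 ± 0.0644, adjusted p = 0.104), and Cdc25b, a phosphatase that activates Cdk1 (log2 -0.30 ± 0.0946, adjusted p = 0.214). None passed. In iWAT they were Orc2, of the origin recognition complex (log2 0.09 ± 0.061), Kif2c, a mitotic kinesin (0.33 ± 0.25), and E2f6, a repressor E2F (0.18 ± 0.136), each with an adjusted p of 0.99995.

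Among the genes whose levels followed the mouse number across tissues more closely than Cdkn1a were Fkbp5, an HSP90 co-chaperone of steroid receptors, with an r of 0.935, Ddit4, an inhibitor of mTORC1 signalling, with an r of 0.907, and Nfkbia, the inhibitor of NF-kB, with an r of 0.896. They were picked after their values were seen, and none passed after adjustment over 14936 genes (adjusted permutation p = 0.407, 0.407 and 0.373, against 0.458 for Cdkn1a).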
